A study of Mus musculus with 6 samples.

Results

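Wdfy1 and its chromosome 1 neighbours Ap1s3, Mrpl44, Farsb, Cul3 and Dock10 were followed in tumor-associated macrophages (TAMs) with and without myeloid ablation of Pdcd1. These 6 genes are 6 of the 55421 Ensembl genes in the raw count table and of the 16552 genes in the normalized table, and all 6 passed the filter on low counts that left 14469 genes for testing. Wdfy1 was chosen for its higher level in TAMs of Pdcd1f/fLysMCre mice, and Ap1s3 had been named in earlier results of the same comparison. Mrpl44, Farsb, Cul3 and Dock10 were chosen by their place on chromosome 1. The values of the 6 genes between the genotypes are therefore a description, and no p-value is given for them. The question was whether the higher Wdfy1 level, measured 14.3 Mb from Pdcd1, extends to the adjacent genes.

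TAMs, sorted as live CD45+CD11b+F4/80+Ly6G− cells, came from MC17-51 fibrosarcomas, named M17 in the labels, of adult mice on day 15 after implantation. The control group was Pdcd1f/f, with a floxed Pdcd1 gene and no Cre, and the other group was Pdcd1f/fLysMCre, with the same floxed gene and Cre driven from the lysozyme M locus, which is active in macrophages, monocytes and neutrophils. Each group had 3 libraries of polyadenylated RNA. Strain background of the floxed line, animals per library and whether the controls were littermates are not given in the sources used here. The p-values therefore set a difference only against the spread between these libraries.

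WDFY1 is an early endosome protein that holds phosphatidylinositol 3-phosphate through its FYVE domain and carries WD repeats, and it is known as a helper that brings the adaptor TRIF to Toll-like receptors TLR3 and TLR4. TRIF signaling leads to type I interferon and inflammatory cytokines in macrophages. The neighbours have other roles: AP1S3 is the small sigma subunit of the AP-1 clathrin adaptor between the trans-Golgi and endosomes, MRPL44 belongs to the large subunit of the mitochondrial ribosome, FARSB is the beta subunit of the synthetase that charges tRNA with phenylalanine, CUL3 is the scaffold of ubiquitin ligases with BTB-domain adaptors, and DOCK10 activates the small GTPases Cdc42 and Rac.

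On GRCm38 the 6 genes span 2.34 Mb of chromosome 1. With coordinates from the GENCODE M21 annotation, the order along the chromosome was Farsb (ENSMUSG00000026245, 78417975 to 78488897, minus strand), Ap1s3 (ENSMUSG00000054702, 79606876 to 79671972, minus), Wdfy1 (ENSMUSG00000073643, 79702262 to 79776143, minus), Mrpl44 (ENSMUSG00000026248, 79776018 to 79781445, plus), Cul3 (ENSMUSG00000004364, 80264923 to 80340480, minus) and Dock10 (ENSMUSG00000038608, 80501073 to 80758527, minus). Ap1s3 lies 30.3 kb from Wdfy1 on the side away from Pdcd1, beyond the 3′ end of Wdfy1, and Farsb lies 1.21 Mb away on that side. Mrpl44 abuts Wdfy1 head to head on the side of Pdcd1, followed by Cul3 at 489 kb and Dock10 at 725 kb. Mrpl44 and Wdfy1 overlap by 126 bases of exon on opposite strands, which is 7.66% of the exonic length of Mrpl44 and 1.94% of that of Wdfy1. Of 14 annotated Wdfy1 transcripts, only 1 starts inside Mrpl44, and the other 13 start 14.0 kb or more away. The libraries were made with a stranded mRNA kit. Whether reads were also counted by strand is not given in the sources used here, so reads in those 126 bases cannot be assigned to either gene with certainty.

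Upstream sequences are shown for 3 neighbours that frame Wdfy1 and differ in their values: Ap1s3 and Farsb, whose libraries lay higher in Pdcd1f/fLysMCre TAMs without overlap, and Mrpl44, the head-to-head gene, whose libraries overlapped. The sequences are from RefSeq on GRCm38.p6, 5′ to 3′ on the strand of the gene, and end at the base before its start. Capitals mark PU.1 and NF-kB motifs in Ap1s3 and the E-box in Farsb. Ap1s3 is chr1:79671973-79672222, Farsb is chr1:78488898-78489147, and of the Mrpl44 window the first 192 bases, chr1:79775768-79775959, are printed, since the rest lies in the first exon of the Wdfy1 transcript that overlaps Mrpl44.
Ap1s3: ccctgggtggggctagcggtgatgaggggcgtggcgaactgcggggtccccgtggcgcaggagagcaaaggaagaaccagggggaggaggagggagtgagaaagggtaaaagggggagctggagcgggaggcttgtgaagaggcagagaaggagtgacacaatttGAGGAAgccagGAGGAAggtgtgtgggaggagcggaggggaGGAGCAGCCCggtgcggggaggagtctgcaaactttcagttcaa
Farsb: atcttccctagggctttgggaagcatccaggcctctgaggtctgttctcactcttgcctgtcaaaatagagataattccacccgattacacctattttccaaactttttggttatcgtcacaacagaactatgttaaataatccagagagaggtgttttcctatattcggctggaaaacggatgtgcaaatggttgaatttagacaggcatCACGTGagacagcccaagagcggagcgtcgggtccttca
Mrpl44: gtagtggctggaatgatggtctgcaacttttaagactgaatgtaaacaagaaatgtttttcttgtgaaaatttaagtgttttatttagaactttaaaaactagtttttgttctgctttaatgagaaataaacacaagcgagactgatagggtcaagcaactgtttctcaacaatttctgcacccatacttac

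In the table of 32851 promoters, 5 of the 6 genes had a window of 250 bases, with 2 windows for Dock10. The motifs searched on both strands were PU.1 (GAGGAA), E-box (CACGTG), AP-1 (TGANTCA), CRE (TGACGTCA), NF-kB (GGG and CC with 5 bases between), ISRE (GAAA and GAAA with 2 bases between) and the ETS-IRF composite (GGAA and GAAA with 2 bases between). Ap1s3 had 2 PU.1 matches, and 23.3% of all windows held at least 1. Ap1s3, Cul3 and both Dock10 windows held the NF-kB letters, as did 45.8% of all windows. Farsb had the E-box, found in 6.02% of all windows. The Mrpl44 window held none of the 7 motifs, and none of the 5 genes had ISRE (2.98% of all windows), ETS-IRF (2.30%), AP-1 (6.75%) or CRE letters (1.55%), which says only that these letters are not in these windows. CG dinucleotides numbered 10 in Ap1s3, 8 in Farsb, 4 in Mrpl44 and 23 in Cul3, and 27 and 5 in the Dock10 windows, against a median of 6 over all windows.

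Library totals were 41833823 to 51417209 counts. The libraries separated as labelled by Lyz2, the gene at the Cre insertion, with 216864 ± 8638 normalized counts (SD, n = 3) in Pdcd1f/f and 427 ± 33.4 (SD, n = 3) in Pdcd1f/fLysMCre. Pdcd1 itself had 10, 12 and 15 counts in Pdcd1f/f and 7, 16 and 11 in Pdcd1f/fLysMCre, so gene-level counts did not show its deletion. Summed macrophage markers were 8683 to 8742 CPM (raw counts scaled to the library total) in Pdcd1f/f and 7531 to 7621 in Pdcd1f/fLysMCre, and 4 of the 9 were lower past the threshold, an adjusted p under 0.05 in edgeR, as were 3.01% of all genes tested. In each of the neutrophil, stromal and endothelial lists 1 marker was also lower past it, and no marker of any cell type list was higher. Other marker sums in the same order were 89.4 to 96.6 and 79.8 to 84.0 for neutrophils, 13.4 to 14.9 and 12.2 to 14.1 for T and NK cells, 3.60 to 4.47 and 2.55 to 3.13 for B cells, with Pax5 at 0, 5.71 to 7.75 and 7.25 to 8.81 for dendritic cells, 65.9 to 71.2 and 61.9 to 68.9 for stromal cells, and 41.8 to 44.2 and 34.1 to 35.7 for endothelial cells. Xist was 367 to 565 and 181 to 276 CPM, and 4 Y-linked genes summed to 32.7 to 40.8 and 133 to 151, so sex composition cannot be told apart from genotype. The deviation of a library from its genotype mean tracked gene GC content with opposite signs, with Spearman rho over 14454 genes of −0.642 in Pdcd1f/f replicate 1 and −0.555 in Pdcd1f/fLysMCre replicate 2, against 0.131 to 0.574 in the other 4 libraries.

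Wdfy1 transcripts were 2.52-fold more abundant in Pdcd1f/fLysMCre TAMs. The Pdcd1f/f libraries had 1859, 1799.9 and 1778 normalized counts, which are the authors' counts divided by a size factor per library, and the Pdcd1f/fLysMCre libraries had 4388, 4744 and 4541. The lowest Pdcd1f/fLysMCre library was thus far above the highest control, and the means were 1812 ± 42.2 (SD, n = 3) and 4558 ± 178 (SD, n = 3). In edgeR's fit over all genes the log2 fold change was 1.33 with a standard error of 0.06 and a 95% interval of 1.19 to 1.47, or 2.28 to 2.78 as a fold. It was the 38th highest fitted log2 fold change of 14469 genes and the 16th among the genes past the threshold. With each library left out in turn the log2 fold change of Wdfy1 was 1.30 to 1.36. It was 1.28 after offsets by GC and length were added, and 1.32 without the 2 libraries with a negative GC relation, an alternative chosen after seeing the data. Kdm5d, a Y-linked gene, moved with Wdfy1 in these libraries, with 221 ± 23.5 and 627 ± 33.6 normalized counts (SD, n = 3). The part of sex composition and of the lower macrophage marker sum in the Wdfy1 difference was not tested, and in bulk RNA a different number of expressing cells and a different amount of RNA per cell cannot be told apart.

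**Figure D1:**
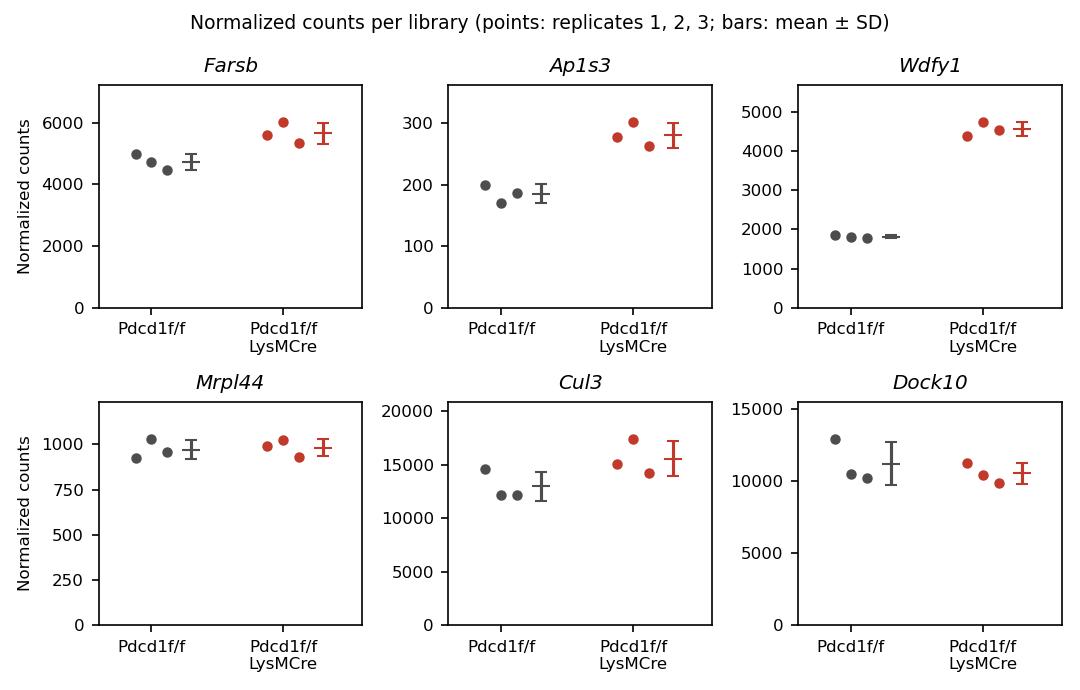
Normalized counts, counts divided by a size factor per library, of the 6 genes in each library, on axes from 0, with points for replicates 1, 2 and 3 and bars for the mean ± SD (n = 3). The Wdfy1 libraries lie at 1778 to 1859 and at 4388 to 4744, those of Ap1s3 and Farsb are also apart, and those of Mrpl44, Cul3 and Dock10 overlap.

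Ap1s3, the nearest gene on the other side, was 1.51-fold more abundant in Pdcd1f/fLysMCre TAMs. Its normalized counts were 200.3, 169.8 and 187 in Pdcd1f/f and 278, 303 and 263 in Pdcd1f/fLysMCre, from 152 to 318 raw counts a library. The groups did not overlap, and the means were 186 ± 15.3 and 281 ± 20.4 (SD, n = 3). The log2 fold change was 0.60 (SE 0.12, 95% interval 0.33 to 0.87), below the interval of Wdfy1. It ranged from 0.54 to 0.65 with a library left out and was 0.52 with the GC and length offsets. With each library left out Ap1s3 was past the threshold in 2 of 6 fits, those without Pdcd1f/f replicate 1 and without Pdcd1f/fLysMCre replicate 3.

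Mrpl44, which shares 126 exonic bases with Wdfy1, differed between the groups by less than the spread between libraries. It had 925, 1030.1 and 961 normalized counts in Pdcd1f/f and 990.0, 1026 and 931 in Pdcd1f/fLysMCre. All Pdcd1f/fLysMCre values lay between the lowest and the highest control value, with means of 972 ± 53.7 and 982 ± 47.8 (SD, n = 3). The log2 fold change was 0.02 (SE 0.08), and its 95% interval of −0.16 to 0.20 corresponds to folds of 0.893 to 1.15. Its sign turned under 4 of 16 alternatives, and none passed the threshold. Within a library, the ratio of Wdfy1 to Mrpl44 counts was 2.01, 1.75 and 1.85 in Pdcd1f/f and 4.43, 4.62 and 4.88 in Pdcd1f/fLysMCre. The head-to-head pair thus stood in ratios that did not overlap between the genotypes, a comparison that needs no size factor.

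Farsb, 1.21 Mb away, had 4986, 4731 and 4462 normalized counts in Pdcd1f/f and 5595, 6031 and 5336 in Pdcd1f/fLysMCre. The groups did not overlap, although the gap was small, with means of 4726 ± 262 and 5654 ± 351 (SD, n = 3). The log2 fold change was 0.26 (SE 0.07, 95% interval 0.10 to 0.42), a fold of 1.20. Farsb was not past the threshold in the main edgeR fit but was in 7 of 16 alternatives, some of them on all 6 libraries. Its log2 fold changes were 0.21 to 0.29 over all 16. The ratio of Wdfy1 to Farsb counts was 0.384 ± 0.0131 and 0.807 ± 0.0378 (SD, n = 3).

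Cul3 had 14550.0, 12182 and 12170.3 normalized counts in Pdcd1f/f and 15024, 17395 and 14248 in Pdcd1f/fLysMCre. The lowest Pdcd1f/fLysMCre library was under the highest control, so the groups overlapped, with means of 12967 ± 1371 and 15556 ± 1640 (SD, n = 3). The 2 highest values of Cul3 within their groups were in the libraries whose deviations followed GC content with a negative sign, 1 in each genotype. The exons of Cul3 have a GC content of 38.5%. The log2 fold change was 0.26 (SE 0.09, 95% interval 0.06 to 0.47). It was 0.15 with the GC and length offsets and 0.26 without those 2 libraries. The part of GC content in the difference was not tested. Cul3 was not past the threshold in the main edgeR fit but was in 5 of 16 alternatives. These included the fit with GC and length offsets and the fit without Pdcd1f/f replicate 1, where the log2 fold change was 0.35.

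Dock10, the neighbour nearest to Pdcd1 on the chromosome, had 12903, 10459 and 10178 normalized counts in Pdcd1f/f and 11264, 10403 and 9871 in Pdcd1f/fLysMCre. The groups overlapped, and Pdcd1f/f replicate 1 stood above the other 5 libraries. The means were 11180.0 ± 1499 and 10512 ± 703 (SD, n = 3). The log2 fold change was −0.09 (SE 0.09, 95% interval −0.29 to 0.12), and it turned to 0.02 without Pdcd1f/f replicate 1. Dock10 was past the threshold, as lower, in 1 of 16 alternatives, that with GC and length offsets and the replicate block.

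**Figure D2:**
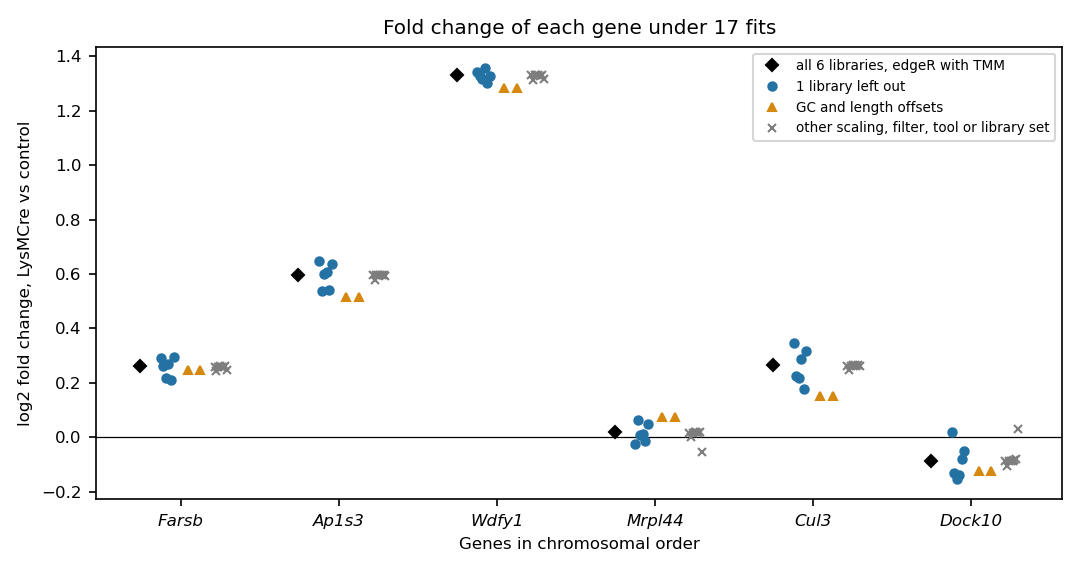
Log2 fold change of each gene (vertical axis) under 17 fits, with genes in chromosomal order, a diamond for edgeR with TMM on all 6 libraries, circles with 1 library left out, triangles with GC and length offsets, and crosses for other settings. Wdfy1 stays between 1.28 and 1.36, and Mrpl44 and Dock10 lie on both sides of 0.

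Of the 6 genes, 2 were past the adjusted p threshold of 0.05, Wdfy1 and Ap1s3, both as higher, while 5.43% of all genes tested were past it (786 of 14469) and 2.42% as higher (350 genes). With GC and length offsets the calls over all genes were 1622 higher and 1119 lower, against 350 higher and 436 lower without. In that fit Wdfy1, Ap1s3, Farsb and Cul3 were past the threshold, all as higher, where 18.9% of all genes were past it. For 3 of the 6, Wdfy1, Ap1s3 and Farsb, all Pdcd1f/fLysMCre libraries lay above all controls, and this held for 14.1% of all genes tested. Since 2 of the 6 genes were chosen with these values known, nothing is read from any of these counts.

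Per length, expressed as CPM over the exonic length in kilobases, Wdfy1 was a mid-level transcript in control TAMs. Its level was 5.95 ± 0.154 (SD, n = 3), at the 57.7th percentile of genes tested, and 14.8 ± 0.542 in Pdcd1f/fLysMCre TAMs. In control TAMs Cul3 had the highest level of the 6 at 56.7 ± 6.05, followed by Farsb at 38.4 ± 2.26, Dock10 at 13.0 ± 1.77, Mrpl44 at 12.6 ± 0.731, Wdfy1, and Ap1s3 at 1.38 ± 0.111 (SD, n = 3). The libraries of Dock10 and Mrpl44 overlapped, and those of the other neighbours in this order did not. In Pdcd1f/fLysMCre TAMs the Wdfy1 libraries, at 14.2 to 15.3, lay above those of Mrpl44 at 12.1 to 13.0 and Dock10 at 11.5 to 13.0, so Wdfy1 moved from the fifth to the third place. Ap1s3 was the lowest of the 6 in both genotypes, with 2.06 ± 0.132 in Pdcd1f/fLysMCre TAMs.

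**Figure D3:**
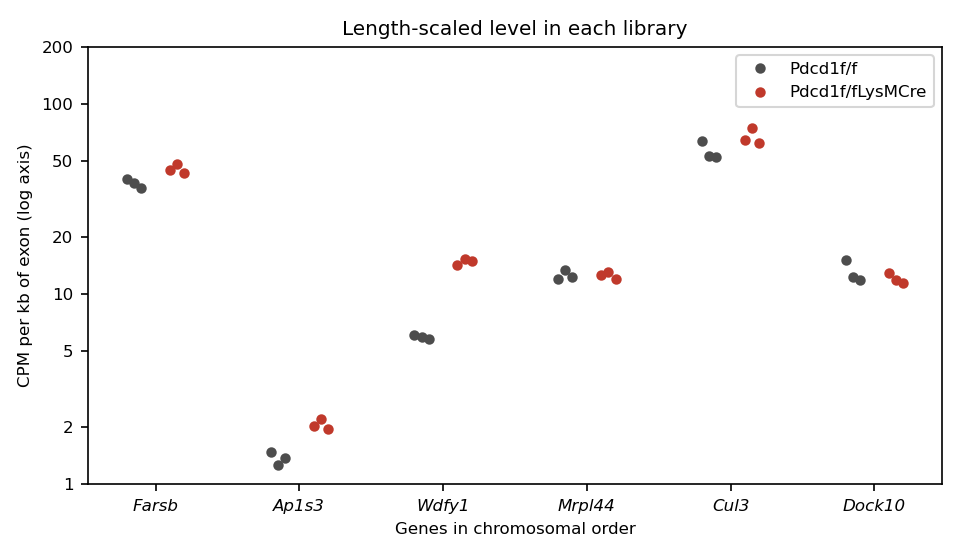
Level of each gene in each library (CPM per kilobase of exon, log axis), in chromosomal order, with Pdcd1f/f in grey and Pdcd1f/fLysMCre in red. Wdfy1 lies below Mrpl44 and Dock10 in the controls and above both in Pdcd1f/fLysMCre TAMs.

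Within 1 Mb of Wdfy1 the annotation holds 35 genes including Wdfy1, of which 10 were tested and 11 had no count in any library. Of 11 protein-coding genes there, 7 were tested, and Kcne4, Scg2, Fam124b and Gm45261 were under the filter with at most 1 count in any library. Serpine2, which encodes a secreted protease inhibitor and lies on the far side of Mrpl44, 18.1 kb from Wdfy1, had 143, 128 and 126 normalized counts in Pdcd1f/f and 177, 173 and 145 in Pdcd1f/fLysMCre. The groups did not overlap, but the difference was not past the threshold (log2 fold change 0.32, SE 0.14, adjusted p = 0.209 from the quasi-likelihood test of edgeR, adjusted after Benjamini and Hochberg). Acsl3, a ligase that activates long-chain fatty acids, had a log2 fold change of −0.17 (SE 0.08, adjusted p = 0.239, edgeR) with overlapping libraries. The pseudogenes Gm5529 and Gm6189 and the transcript Gm37902, which lies inside Cul3, had log2 fold changes of 0.16, −0.39 and −0.30 with adjusted p-values of 0.872, 0.669 and 0.578 in the same edgeR fit. Of the 10 tested genes, the 2 past the threshold were Wdfy1 and Ap1s3 (5.43% of all genes were past it), whose values were known when they were chosen.

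Within 2 Mb, 13 genes were tested and 3 (23.1%) were past the threshold, against 5.43% of all genes. These were Wdfy1 and Ap1s3, chosen with their values known, and Nyap2. Nyap2, an adaptor of phosphoinositide 3-kinase described in neurons, lies 1.30 Mb from Wdfy1 beyond Dock10. It had 224, 194 and 199 normalized counts in Pdcd1f/f and 339, 309.5 and 314 in Pdcd1f/fLysMCre, with a log2 fold change of 0.64 (SE 0.11, adjusted p = 0.0103, edgeR). It was past the threshold in 4 of 6 fits with a library left out.

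Within 10 Mb of Wdfy1, 121 genes were tested, and 13 (10.7%) were past the threshold, 8 higher and 5 lower, against 5.43% of all genes. Without the 6 listed genes, 11 of 115 (9.57%) were past it, 6 higher and 5 lower, and over the rest of chromosome 1 the share was 48 of 786 (6.11%). Between Wdfy1 and Pdcd1, 9 of 101 genes (8.91%) were past it, 5 higher and 4 lower. The median log2 fold change, listed genes included, was 0.09 within 1 Mb (6 of 10 genes above 0), 0.16 within 2 Mb (8 of 13 above 0), −0.06 within 5 Mb (20 of 44 above 0) and −0.03 within 10 Mb (58 of 121 above 0), against −0.00 over all genes. The count of 13 within 10 Mb fell to 2, 3, 2, 4 and 5 when Pdcd1f/f replicate 2 or 3 or Pdcd1f/fLysMCre replicate 1, 2 or 3 was left out. The shares called within 10 Mb in these 5 fits, 1.52% to 3.79%, were close to those of all genes in the same fits, 1.51% to 3.56%, so the larger share with all 6 libraries was not seen in them. In other fits on all 6 libraries the share stayed larger within 10 Mb, at 26.4% against 18.9% of all genes with GC and length offsets, 13.2% against 7.10% with the replicate block and 11.8% against 6.20% with at least 10 counts in every library. The gap was smaller without a filter, at 9.02% against 7.32%. DESeq2 gave 7.06% against 5.70%. Both DESeq2 shares count low-count genes that its own filter leaves without an adjusted p, so their gap is not read. The shares from these fits include the listed genes. The count within 10 Mb was 32 genes (25.6%, against 21.6% of all genes) without Pdcd1f/f replicate 1, and 37 (31.6%, against 26.2%) without both libraries with a negative GC relation.

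The other genes called higher within 10 Mb were Nyap2, Atic, Apol7d, Dner, Ncl and Glrp1. Atic, an enzyme of purine synthesis, was higher by 0.28 on the log2 scale (SE 0.06, adjusted p = 0.0219, edgeR), and Ncl, the nucleolar protein nucleolin, by 0.37 (SE 0.09, adjusted p = 0.0451, edgeR). Dner, a Notch-related membrane protein, was higher by 0.65 (SE 0.16, adjusted p = 0.0380, edgeR), and Glrp1 by 0.87 (SE 0.21, adjusted p = 0.0425, edgeR). Apol7d had 1, 3 and 2 raw counts in Pdcd1f/f and 20, 14 and 11 in Pdcd1f/fLysMCre, so it passed the filter on low counts only through the group where it is high, and neither a fold nor its p-value is given. With at least 10 counts required in every library, 12 of 102 genes within 10 Mb were called, 7 of them higher. Apol7d is annotated as an antisense gene that overlaps Fn1 on the other strand, so without the strand setting reads in the overlap cannot be told apart, and C130026I21Rik has similar copies nearby between which the counting could have split reads. The genes called lower were Tns1, Cyp27a1, C130026I21Rik, Htr2b and B3gnt7. Tns1, an actin-binding protein of focal adhesions, fell the most, from 3390.0 ± 325 to 1749 ± 142 normalized counts (SD, n = 3, log2 fold change −0.95, adjusted p = 2.89e-04, edgeR), and it was past the threshold in each of 6 fits with a library left out. Cyp27a1, the sterol 27-hydroxylase, had a log2 fold change of −0.42 (adjusted p = 0.0311, edgeR), the serotonin receptor gene Htr2b of −0.38 (adjusted p = 0.0427), the glycosyltransferase gene B3gnt7 of −0.80 (adjusted p = 0.0404) and C130026I21Rik of −0.58 (adjusted p = 0.0277). Of these 11 genes, Tns1 was past the threshold in every fit with a library left out and the others in 1 to 4 of 6.

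**Figure D4:**
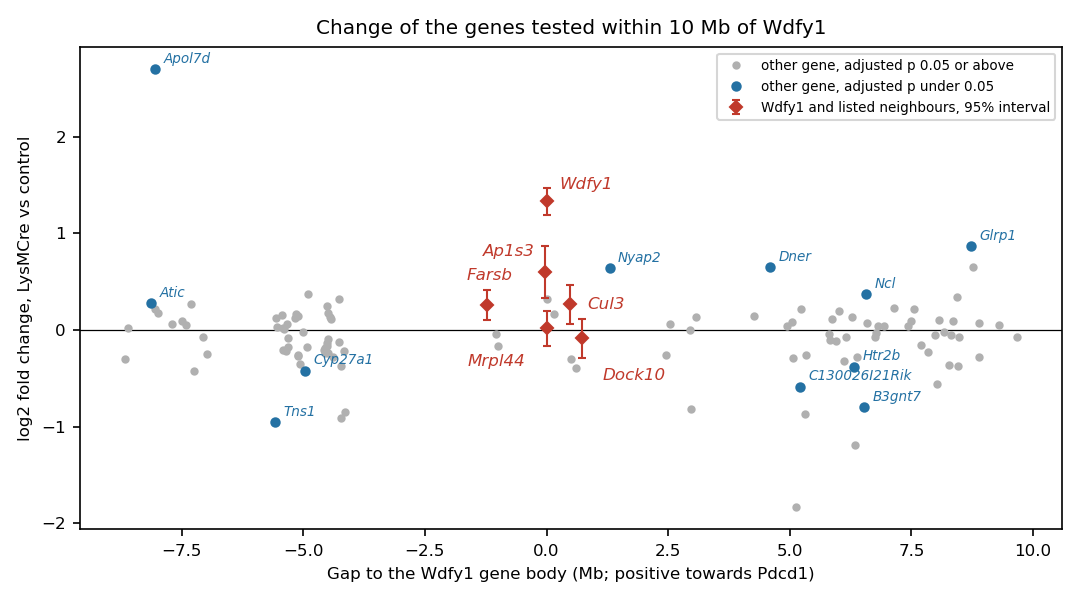
Log2 fold change of the 121 genes tested within 10 Mb of Wdfy1 (vertical axis) against the gap to the Wdfy1 gene body in Mb (horizontal axis, positive towards Pdcd1), with the 6 listed genes in red and their 95% intervals, and other genes past the threshold in blue. Wdfy1 at 1.33 and Ap1s3 at 0.60 stand above the other genes tested within 1 Mb, and Nyap2, Dner and Glrp1 lie above Ap1s3 at larger gaps. Apol7d is drawn, but its height is not read, since it passed the filter on low counts only through the group where it is high. Genes past the threshold lie on both sides of 0.

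Of the 4 Wdfy genes, 2 were called, Wdfy1 as higher and Wdfy2 as lower, against 5.43% of all genes, and Wdfy1 was chosen with its values known. Wdfy2, its closest relative in domain structure and located on another chromosome, fell from 9844 ± 59.6 to 8211 ± 306 normalized counts (SD, n = 3, log2 fold change −0.26, adjusted p = 0.0294, edgeR), a call kept in 1 of 6 fits with a library left out. Wdfy3, a large protein of selective autophagy, had a log2 fold change of −0.32 (SE 0.08, adjusted p = 0.0572, edgeR), and Wdfy4, which is needed for cross-presentation in dendritic cells, of −0.19 (SE 0.09, adjusted p = 0.209, edgeR). Wdfy1 was the single member of the 4 with a log2 fold change above 0, and the median was −0.23.

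Genes of TLR3 and TLR4 signaling through TRIF, listed for the known role of WDFY1, had 1 call in the main edgeR fit, and the share called varied with the fit. Of 24 tested, none was higher and 1 was lower (4.17%, against 5.43% of all genes), with a median log2 fold change of −0.00, and 8 had an unadjusted p under 0.05 in edgeR and 4 were called by DESeq2. The gene called was Ccl5, a chemokine induced by interferon signaling, with 1004, 1079 and 1062 normalized counts in Pdcd1f/f and 538, 567 and 645 in Pdcd1f/fLysMCre (log2 fold change −0.84, SE 0.09, adjusted p = 7.13e-04, edgeR). DESeq2's 4 calls are 16.7% of the list, where all 24 genes had an adjusted p. Over all 26637 genes in that fit 5.70% were called. That share counts low-count genes that DESeq2's own filter leaves without an adjusted p, so the 2 shares are not compared. Without Pdcd1f/f replicate 1 the TRIF list had 9 calls, 4 higher and 5 lower (37.5%, against 21.6% of all genes), with GC and length offsets 8, 5 higher and 3 lower (33.3%, against 18.9%), and with 4 libraries 12 of 24 (against 26.2% of all genes), while each of the other 5 libraries left out gave 1. Of 16 genes for early endosome and phosphatidylinositol 3-phosphate proteins, 1 was called (6.25%), Zfyve9, a FYVE protein that presents SMAD proteins to the TGF-beta receptor, with a log2 fold change of 0.38 (SE 0.08, adjusted p = 0.0251, edgeR), and the median was −0.05. That list had 4 calls without Pdcd1f/f replicate 1 (25.0%, against 21.6% of all genes) and none in each of the other 5 fits with a library left out.

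Of 7 tested subunits of the AP-1 adaptor, Ap1s3 was higher and Ap1b1, the beta subunit, was lower, with 17290.1 ± 1623 and 13014 ± 1005 normalized counts (SD, n = 3, log2 fold change −0.41, adjusted p = 0.0206, edgeR), while the other 5 were not past the threshold and the median was −0.12. These 2 calls are 28.6% of the list, against 5.43% of all genes, and Ap1s3 was chosen with its values known. The AP-1 list had 4 calls without Pdcd1f/f replicate 1, where 21.6% of all genes were called, 2 without Pdcd1f/fLysMCre replicate 3, where 3.56% were, and none in the other 4 fits with a library left out. None of the 48 tested genes for the large mitochondrial ribosome subunit, Mrpl44 included, was past the threshold in edgeR, where 6 had an unadjusted p under 0.05, and DESeq2 called 1. The median of that list was −0.05, and leaving out Pdcd1f/f replicate 1 gave 11 calls, 4 higher and 7 lower (22.9%, against 21.6% of all genes), as did leaving out both libraries with a negative GC relation (26.2% of all genes), while each of the other 5 libraries left out gave none. None of 10 DOCK genes was past it either, with 2 at an unadjusted p under 0.05 and 1 called by DESeq2, and their median was −0.07. Leaving out Pdcd1f/f replicate 1 gave 1 call in this list of 10, where 21.6% of all genes were called.

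Of 20 cytosolic aminoacyl-tRNA synthetases, the family of Farsb, 9 were called (45.0%), all as higher, where 5.43% of all genes were called and 2.42% as higher, with a median log2 fold change of 0.27 against −0.00 over all genes. The 3 with the highest log2 fold change were Gars at 0.51 (SE 0.06, adjusted p = 8.30e-04, edgeR), Eprs at 0.42 (SE 0.07, adjusted p = 0.00644) and Iars at 0.41 (SE 0.06, adjusted p = 0.00265). Farsb, with 0.26, lay near the median of this list. Farsa, its partner in the same enzyme and named after its values were seen, had 2830.4 ± 355 and 2819 ± 242 normalized counts (SD, n = 3) and a log2 fold change of −0.00 with an interval of −0.22 to 0.22. With a library left out the list had 3 to 14 calls, 14 without Pdcd1f/f replicate 1 (70.0%, against 21.6% of all genes) and 3 without Pdcd1f/f replicate 2 or Pdcd1f/fLysMCre replicate 1 (15.0%, against 1.51% in both fits). Of 28 tested cullins and partners of CUL3, 1 was called (3.57%, against 5.43% of all genes), the BTB adaptor gene Kbtbd7, with a log2 fold change of 0.43 (SE 0.10, adjusted p = 0.0393, edgeR), and the median was 0.10. In that list 11 genes had an unadjusted p under 0.05 in edgeR and DESeq2 called 2. It had 12 calls, 9 higher and 3 lower, without Pdcd1f/f replicate 1 (42.9%, against 21.6% of all genes), 7, all higher, with GC and length offsets (25.0%, against 18.9%), 14 of 28 with 4 libraries (against 26.2%), and none with any of the other 5 libraries left out.

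The 5 genes whose values over the 6 libraries were most like those of Wdfy1 lay outside the 10 Mb around it. Those 10 Mb hold only 121 of the 14469 genes tested, and the likeness includes the difference for which Wdfy1 was chosen. Nothing about the region is therefore read from where these 5 genes lie. Likeness was measured as the root mean square difference of log2(normalized count + 1), each gene set to 0 at its control mean. Serpinb2, a serine protease inhibitor of activated macrophages at 27.7 Mb from Wdfy1 on chromosome 1, differed by 0.0510, with 343, 324 and 317 normalized counts in Pdcd1f/f and 850.3, 901 and 817 in Pdcd1f/fLysMCre. Kdm5d on chromosome Y differed by 0.148, the pseudogene Gm9308 by 0.165, the small nucleolar RNA gene Snord87, 69.8 Mb from Wdfy1 on chromosome 1, by 0.173 and Qpct, the glutaminyl cyclase that modifies chemokines, by 0.194. Gm9308 had 5, 5 and 6 raw counts in Pdcd1f/f and 18, 16 and 17 in Pdcd1f/fLysMCre, and Snord87 had 8, 6 and 9, and 21, 21 and 22. The Pdcd1f/f libraries alone would not have passed the filter for either gene, so no p-value is given for Gm9308 or Snord87. Of the neighbours, Ap1s3 was 181st of 14468 genes by this measure at 0.525, Farsb was 1396th and Cul3 1409th, and Mrpl44 (6292nd) and Dock10 (8757th) were far down the order.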

How the data were processed

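Libraries were analysed from 3 Pdcd1f/f and 3 Pdcd1f/fLysMCre samples, grouped by the labels. The authors removed adapters with Cutadapt (version 2.5), aligned reads to GRCm38 with STAR (2.7.3a) and deposited raw counts per Ensembl gene from featureCounts (Subread 1.6.2). A second table deposited by the authors holds a normalized signal, in which counts are divided by a DESeq2 (1.24.0) size factor of 0.895 to 1.08 per library. Strand setting and multi-mapped reads are not given in the sources used here.

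Genotypes were compared on raw counts with edgeR (4.0.16, R 4.3.3), using filterByExpr (minimum count 10, minimum total 15), TMM, robust glmQLFit, the two-sided glmQLFTest and Benjamini-Hochberg adjustment over 14469 genes with a threshold of 0.05. Positions, exonic length, GC content and 14454 symbols came from GENCODE M21. The 16 alternatives were RLE factors, library size alone, no filter, a filter of 10 counts in every library, DESeq2 (1.42.0), limma-trend (limma 3.58.1, pseudocount 1), replicate number as a block, GC and length offsets (loess span 0.5), the offsets together with the block, leaving out each library, and 4 libraries without Pdcd1f/f replicate 1 and Pdcd1f/fLysMCre replicate 2, which was chosen after seeing the data.

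The genes and lists were chosen with earlier results of these data known. Named were the 6 genes, Pdcd1, tested genes within 1 Mb of Wdfy1, genes past the threshold within 10 Mb, up to 3 called genes with the largest change per list, Wdfy2, Wdfy3 and Wdfy4, the 5 genes most like Wdfy1, Lyz2 and Xist. On simulated counts with 14221 genes tested, edgeR recovered 39 of 64 genes changed by 0.5 on the log2 scale, 53 of 67 changed by 1 and 63 of 65 changed by 2, with 13 false calls. Intervals of 95% are for the log2 fold change between the genotypes and rest on the spread between these libraries. Their standard error is the absolute log2 fold change over the square root of the F statistic of the edgeR test.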

Additional observations from a re-analysis of the deposited data

How the results depend on the processing

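The log2 fold change of Wdfy1 kept its direction and its side of the threshold under all 16 alternatives, at 1.28 to 1.36. Ap1s3 kept its direction in all 16 and its side in 12. Both genes were chosen with their values known and the alternatives reuse the same libraries. Their steadiness therefore describes the fits and is no further support for a difference. Mrpl44 turned to −2.14e-05 with library size alone and to −0.054 with 4 libraries, and ranged from −0.026 to 0.064 with a library left out. Dock10 turned to 0.031 with 4 libraries and ranged from −0.15 to 0.019 with a library left out. The 786 genes past the threshold became 1951 without a filter, 1517 with DESeq2, 2741 with GC and length offsets, 2818 with those and the replicate block, 3757 with 4 libraries, and 222 to 3181 with a library left out. The 13 within 10 Mb became 23, 18, 32, 32, 37 and 2 to 32 in the same order. The fit without a filter tested 26637 genes. The DESeq2 fit took in the same 26637, but its own filter on mean counts leaves low-count genes without an adjusted p. The DESeq2 fit thus changed both the tool and the filter. The cause of these changes was not tested. Same-numbered libraries deviated together with r of −0.05, −0.26 and 0.49, and not every library correlated best with its own number, so the replicate number was not taken as a pairing. With the replicate block there were 1027 calls, 16 within 10 Mb, and Wdfy1 was at 1.33. The block moved Farsb past the threshold and, added to the GC and length offsets, moved Dock10 past it. Each genotype has 3 libraries, and the counts of calls rested on single libraries.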
